A study of Rattus norvegicus with 6 samples.

Results

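Glycolysis, glycogen and pyruvate metabolism is described here through 33 named genes of glucose uptake, glycolysis, pyruvate and lactate handling and glycogen turnover. The members were all probe sets of the array whose platform symbol is one of these genes, which gave 55 of the 31099 probe sets. They covered 32 of the 14218 genes named on the array, and 6 of the 55 were Affymetrix control probe sets for Gapdh and hexokinase. Pkm, which encodes the pyruvate kinase of most tissues, was listed only together with a pseudogene, so its probe set was left unnamed and is not analysed here. Gapdh outside the control sets was likewise listed only with another gene. Of the 49 member probe sets that are not controls, 37 passed the filter on low signals and were tested, and they covered 30 genes. Where a gene had several tested probe sets, as 7 members did, it is represented by the brightest, judged by mean log2 signal.

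The RNA was that of neuronal progenitor cells taken from E15.5 rat embryos (cerebral cortex) and grown on fibronectin with 20 ng/ml basic fibroblast growth factor. The groups compared were 3 samples given 1 µM corticosterone, the main glucocorticoid of rodents, and 3 given its solvent dimethyl sulfoxide (vehicle), each for 48 h. Each sample was hybridised to 1 Affymetrix array, and vehicle and corticosterone samples were matched 1 to 1 in 3 couples. No strain, sex or genotype is given in the labels.

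Glycolysis splits glucose into pyruvate in the cytosol and yields a little ATP without oxygen. Dividing cells turn much of the pyruvate into lactate, while the mitochondrial pyruvate dehydrogenase complex feeds the rest into respiration unless a pyruvate dehydrogenase kinase switches the complex off. In brain, glycogen is held mainly by astrocytes, which break it down with glycogen phosphorylase. Glucocorticoids are best known for making the liver release glucose and for lowering glucose use in muscle and fat.

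All 10 progenitor markers with a probe set lay above the background signal of 22.8 on every array. Their summed signal was 66347 to 81751 with vehicle and 78294 to 86780 with corticosterone. Of 5 endothelial markers 0 passed the filter, and of 6 microglial markers 1 did. The median signal was 108 to 122 on the vehicle arrays and 124 to 134 on the corticosterone arrays, and both arrays of couple 1 had weaker hybridisation controls, with medians of 490.3 and 405 against 581 to 695 on the other arrays. Couple 2 stood apart in meningeal, pericyte and fibroblast markers, whose summed signal was 1624 and 2745 on its arrays and 369 to 865 on the others, and 2 of the 4 such markers tested rose. Of 4 oligodendrocyte lineage markers tested 0 rose and 1 fell, and of 4 cell cycle genes 0 passed in limma, also before adjustment. Of 7 genes chosen to check the hormone response 6 rose and 1, Tsc22d3, did not pass (log2 fold change −0.05, limma adjusted p = 0.79).

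Promoter windows of 4 members are shown because Aldoc and Pdk2 rose most clearly with the hormone and because Slc2a1 and Pfkl differed between couples. Each holds the 250 bases before the RefSeq start in assembly GRCr8, read 5′ to 3′ along the gene. Capitals mark ACGTG or GCGTG on either strand, the cores of the element bound by hypoxia-inducible factors, of which ACGTG can overlap itself in the E-box CACGTG.
Aldoc (chr10:63715294-63715543, plus strand): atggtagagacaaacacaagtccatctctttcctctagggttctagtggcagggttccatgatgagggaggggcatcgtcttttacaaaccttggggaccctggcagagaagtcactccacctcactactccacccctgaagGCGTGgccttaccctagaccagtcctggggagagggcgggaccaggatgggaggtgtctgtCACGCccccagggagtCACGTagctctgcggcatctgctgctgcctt
Pdk2 (chr10:80483913-80484162, minus strand): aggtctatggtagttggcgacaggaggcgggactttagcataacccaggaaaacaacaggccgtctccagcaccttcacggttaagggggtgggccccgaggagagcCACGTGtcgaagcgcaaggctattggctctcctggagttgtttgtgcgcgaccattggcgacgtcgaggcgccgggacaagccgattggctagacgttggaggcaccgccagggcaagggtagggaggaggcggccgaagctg
Slc2a1 (chr5:138002272-138002521, plus strand): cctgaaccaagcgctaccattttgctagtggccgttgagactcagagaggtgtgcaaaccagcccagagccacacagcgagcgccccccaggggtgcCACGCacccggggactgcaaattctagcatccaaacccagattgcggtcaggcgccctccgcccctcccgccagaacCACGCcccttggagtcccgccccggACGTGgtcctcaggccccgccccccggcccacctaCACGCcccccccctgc
Pfkl (chr20:10663715-10663964, plus strand): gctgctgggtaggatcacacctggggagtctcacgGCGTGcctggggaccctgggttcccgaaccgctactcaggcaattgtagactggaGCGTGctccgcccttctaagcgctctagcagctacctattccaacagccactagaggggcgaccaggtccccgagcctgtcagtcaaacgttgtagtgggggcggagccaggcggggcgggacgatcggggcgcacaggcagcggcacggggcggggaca

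Such windows were found by symbol for 30 of the 33 members, 34 windows in all. Aldoc had 3 matches, which began 108, 47 and 31 bases before the start, and the 2 matches of Pdk2 overlapped in 1 E-box. ACGTG or GCGTG stood in 73.5% of the 34 member windows and in 36.7% of all 33469 windows. The member windows also had more G and C, with a median of 62.8% against 51.2%, and the part of base composition in the higher share was not tested. The core of the glucocorticoid receptor element, read as ACA and TGTTC spaced by any 3 bases on either strand, was in 0 member windows and in 0.786% of all windows. These matches describe letters in short windows and not binding.

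Corticosterone changed 12 of the 30 member genes tested (40%), of which 11 rose and 1 fell (limma adjusted p under 0.05). Over all 9910 genes tested 19.5% passed, 11.7% higher and 7.77% lower. By probe set 14 of 37 passed, 13 higher and 1 lower, beside 15.9% of all probe sets, 9.4% higher and 6.45% lower. The 13 include a Gpd1 set and a second Pdk2 set, with vehicle means of 47.5 and 63.1, under the filter signal of 63.6. Both entered the test through the group in which they are high, and Gpd1 is also among the 11 genes that rose. How many such sets the shares of all probe sets hold was not counted. The genes that rose were the glucose transporter Slc2a1, Hk1, Gpi, Pfkm, Aldoc, Tpi1, Eno2, the kinase Pdk2, the glycogen enzymes Pygb and Gys1, and Gpd1, while Pfkp fell. The largest rise was that of Aldoc, by 1.60 on the log2 scale, and the other 10 rose by 0.22 to 0.92. The median log2 fold change of the 30 members was 0.22, beside −0.002 for all genes tested. Fold changes are on the log2(signal + 28.6) scale, with 28.6 taken from the 25th percentile of signals, and they understate changes of low signals.

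**Figure D1:**
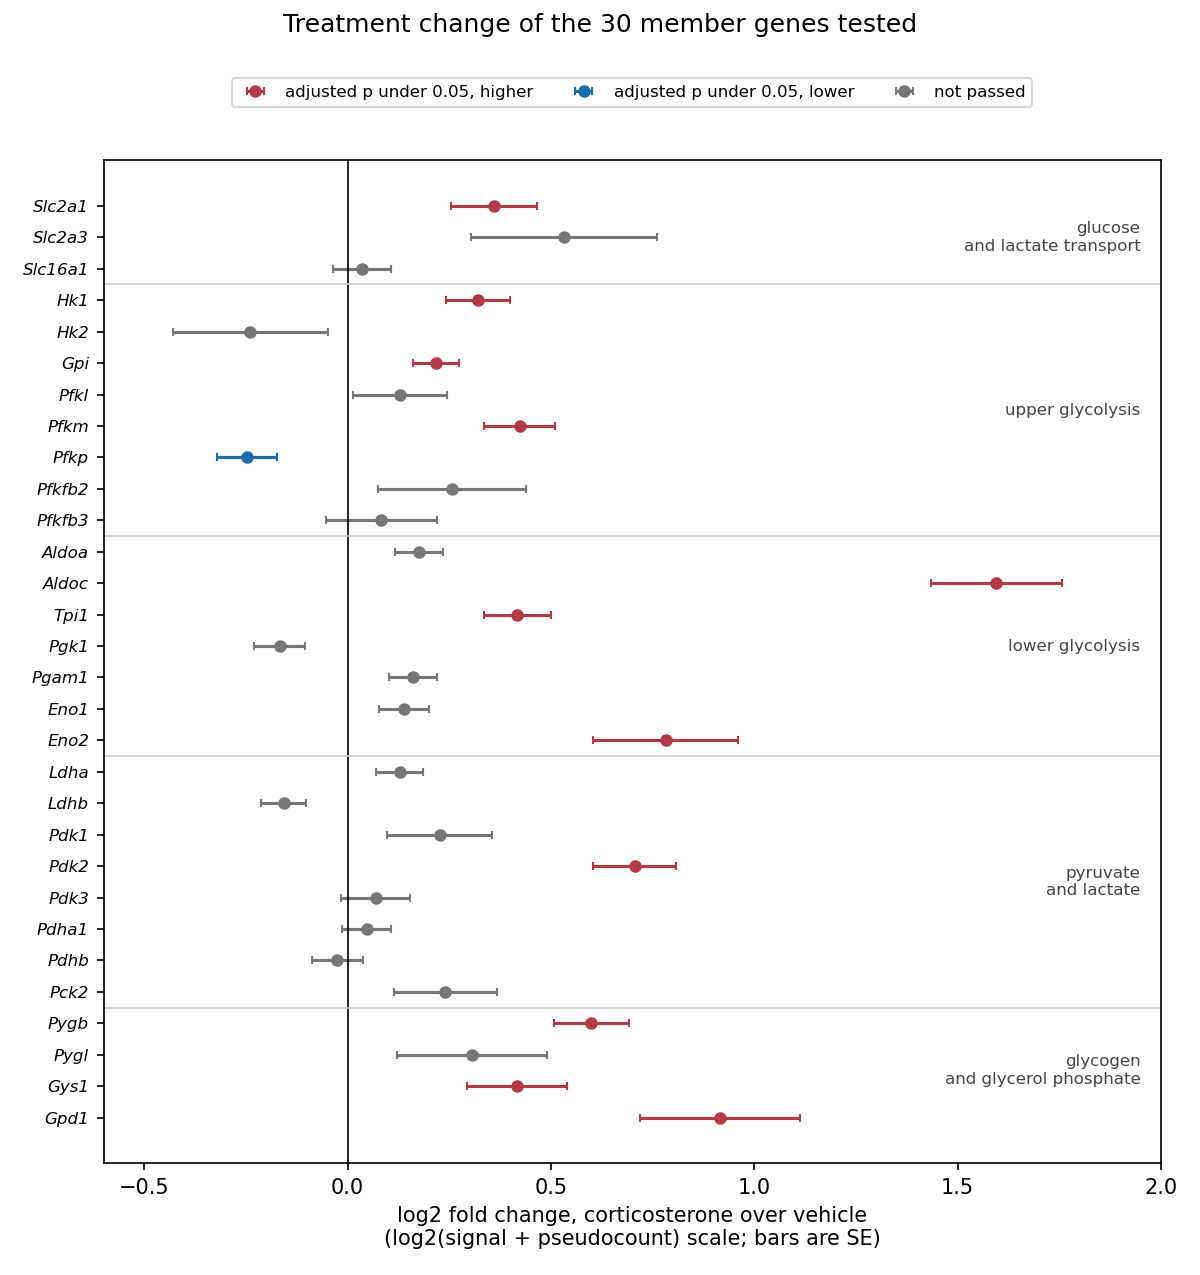
Log2 fold change of corticosterone over vehicle for the 30 member genes tested, on the log2(signal + pseudocount) scale, with points at the estimate and bars for its SE, grouped by role. Aldoc lies farthest right at 1.60, and Pfkp, at −0.25, is the member that passed as lower.

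Of the 30 members 19 were higher in all 3 couples, against 27.7% of all genes, and 3 were lower in all 3, against 27.2%. The other 8 differed in direction between couples. In 6 members all corticosterone arrays lay above all vehicle arrays (background 14.8%): Pfkm, Pfkfb2, Aldoc, Eno2, Pygb and Gpd1. Of these, Gpd1 entered the test through the group in which it is high. In 1 member, Ldhb, all corticosterone arrays lay below all vehicle arrays (background 11.4%). Most changes were small, so the calls rest on comparing samples within couples. When couples were ignored in the model 1 member, Aldoc, passed (adjusted p = 0.013), and the other 11 had adjusted p from 0.062 to 0.60. Without couple 1, 6 members passed, and without couple 2, 5 did, beside 1677 and 1192 of all 18625 probe sets. Centring each array on its median moved the median over all genes to −0.11. It left 7 members higher and 3 lower, beside 1246 and 2846 of all 18625 probe sets. With quantile normalization 12 members were higher and 0 lower, and the counts over all probe sets in that fit are not given here.

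**Figure D2:**
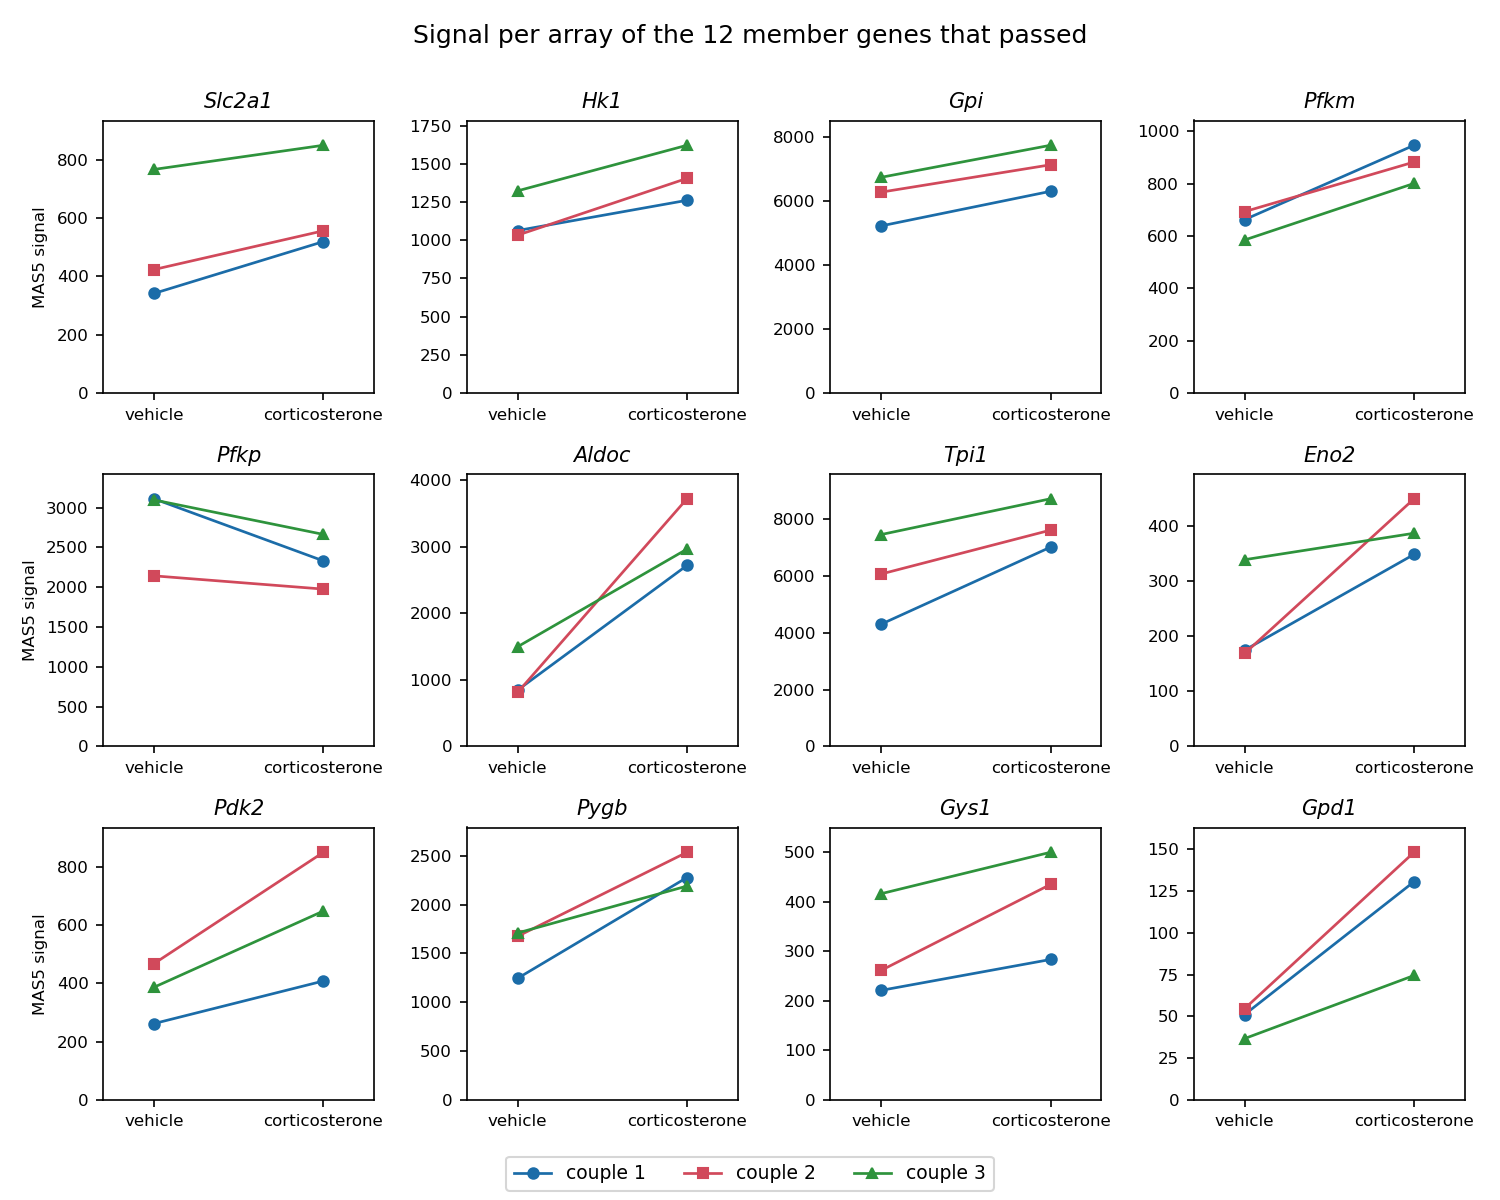
MAS5 signal on a linear axis from 0 for each of the 12 members that passed, with vehicle at left and corticosterone at right. Each line joins the arrays of 1 couple, and 11 panels rise in every couple while Pfkp falls in every couple.

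Glucose enters neural cells through facilitative transporters, and the one of progenitors, glia and the blood-brain barrier is encoded by Slc2a1. Slc2a1 signals, in the order of couples 1, 2 and 3 used throughout, were 342, 424 and 768 with vehicle and 519.8, 557 and 851 with corticosterone. Each corticosterone array was above its partner, but the groups overlapped, because both arrays of couple 3 were high. The log2 fold change was 0.36 ± 0.11 (SE; adjusted p = 0.041). It did not pass without couple 1 (0.24) or couple 2 (0.18), nor in 4 other fits, with quantile normalization (0.053), without the filter (0.090), with median centring (0.11) or without the trend of variance on intensity (0.12). The neuronal-type transporter Slc2a3 had signals of 46.1, 65.6 and 70.1 with vehicle and 90.3, 157 and 66.4 with corticosterone, higher in couples 1 and 2. Its log2 fold change of 0.53 did not pass (adjusted p = 0.14, and 0.034 without couple 3, in which it was lower). Its vehicle mean of 60.6 lay under the filter signal of 63.6 and its corticosterone mean of 105 above it. It thus entered the test through the group in which it is high, and the fit without couple 3 adds no support. Another Slc2a3 probe set, with means of 26.8 with vehicle and 30.1 with corticosterone, was not tested. Lactate leaves and enters cells through monocarboxylate transporters. Slc16a1, the widely expressed one, had signals of 1790 ± 136 and 1842 ± 246 (SD, n = 3 arrays; signals with ± are given in this form throughout). Its log2 fold change had a 95% interval of −0.12 to 0.19.

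Slc16a3 encodes the lactate exporter typical of strongly glycolytic cells. Its signals were 9.91, 16.5 and 143 with vehicle and 43.8, 39.7 and 247 with corticosterone. The vehicle arrays of couples 1 and 2 lay below background, and couple 3 was high with and without the hormone. Its mean on the log2(signal + 28.6) scale, on which the filter was set, lay below the filter, so it was not tested. Without the filter its adjusted p was 0.092, and with a pseudocount of 100, where it was kept, it passed as higher. With 2 vehicle arrays below background and a vehicle mean of 56.6 against 110 with corticosterone, that call adds no support.

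Hexokinases trap glucose as glucose phosphate, and Gpi converts that into fructose phosphate. Hk1, the hexokinase of brain, had signals of 1063, 1032 and 1323 with vehicle and 1261, 1404 and 1621 with corticosterone. Each couple showed the rise, though the groups overlapped, since the corticosterone array of couple 1 lay below the vehicle array of couple 3 (log2 fold change 0.32 ± 0.08, SE; adjusted p = 0.017). Of the 3 hexokinase control probe sets, added to the fit after the data were seen, the middle set rose, by 0.77 (adjusted p = 0.014). The 3′ set, at 0.27, and the 5′ set, at 0.01 and lower in couple 3, did not pass (0.15 and 0.97). The 3′ to 5′ ratio of the hexokinase sets was 1.82 to 2.63 with vehicle and 2.34 to 3.57 with corticosterone. Hk2, the inducible hexokinase of muscle and tumours, had signals of 161, 95.7 and 107 with vehicle and 107, 64.1 and 126 with corticosterone. It was lower in couples 1 and 2 and higher in couple 3 (−0.24, adjusted p = 0.44). Gpi rose from 5215, 6269 and 6733 to 6296, 7124 and 7734 (0.22 ± 0.06, SE; adjusted p = 0.025), by a similar step in each couple.

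Phosphofructokinase commits sugar to glycolysis and is built from 3 kinds of subunit. The muscle-type subunit Pfkm had signals of 662, 693 and 584 with vehicle and 946, 882 and 801 with corticosterone. The groups did not overlap, and the log2 fold change was 0.42 ± 0.09 (SE; adjusted p = 0.0071). Another Pfkm probe set rose too, from 180 ± 15.7 to 291 ± 26.4 (0.62, adjusted p = 0.0077). The platelet-type subunit Pfkp, abundant in brain, fell from 3111, 2143 and 3096 to 2330.5, 1976 and 2663 (−0.25 ± 0.07, SE; adjusted p = 0.043). The liver-type subunit Pfkl did not pass (0.13, 95% interval −0.13 to 0.38, adjusted p = 0.50). Pfkfb2 and Pfkfb3 make the sugar bisphosphate that activates phosphofructokinase, and neither passed. Pfkfb2 had low signals of 71.0 to 87.2 with vehicle and 93.4 to 102 with corticosterone (0.26, adjusted p = 0.39), and the 3 other Pfkfb2 probe sets were not tested. Pfkfb3 went down in couple 1 and up in couples 2 and 3 (0.08, adjusted p = 0.74), and its sign turned without couple 2 or 3 and with median centring.

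Calls of the upper steps did not hold in every fit with 1 couple left out. Gpi did not pass without couple 1, 2 or 3 (adjusted p = 0.086, 0.12 and 0.071) nor Pfkp (0.29, 0.077 and 0.089), Hk1 not without couple 2 (0.15), and Pfkm not without couple 1 (0.051). With median centring Hk1 and Gpi did not pass (0.097 and 0.22), and with quantile normalization Pfkp did not (0.075). Without the filter neither Gpi nor Pfkp passed (0.068 and 0.094), and without the intensity trend none of these 4 genes did (0.051 to 0.19).

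Aldolase cleaves the sugar bisphosphate into 2 triose phosphates. Aldoc, the brain isozyme and in adult tissue an astrocyte marker, had signals of 846, 811 and 1499 with vehicle and 2722, 3725 and 2968 with corticosterone. Every corticosterone array lay well above every vehicle array, and the log2 fold change was 1.60 ± 0.16 (SE; adjusted p = 9.2e-05). Its adjusted p was under 0.05 in every alternative run. In its promoter window, shown above, the glucocorticoid element core was not found. Only 0.786% of all windows held that core, so its absence from 1 window decides nothing. Some markers of astrocytes rose along with Aldoc: of 5 tested 3 rose, S100b by 1.80 and Gja1 by 0.96 among them, and 0 fell. The 2 that did not pass were Gfap (0.58, adjusted p = 0.13) and Fgfr3 (−0.14, adjusted p = 0.40). The summed signal of the 8 astrocyte markers with a probe set was 6527 to 10508 with vehicle and 12452 to 18249 with corticosterone. Gja1 made up most of this sum on every array. The part of astrocyte markers in the rise of Aldoc was not tested. In such bulk samples more cells of a type and more RNA per cell cannot be told apart. Aldoa, the general isozyme, had signals of 7806, 10241 and 11251 with vehicle and 9601, 10994 and 12298 with corticosterone (0.18, adjusted p = 0.069).

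Tpi1 interconverts the triose phosphates and rose from 4298, 6063 and 7451 to 7009, 7607 and 8711 (log2 fold change 0.42 ± 0.08, SE; adjusted p = 0.0060). The rise was largest in couple 1, at 0.70, and smallest in couple 3, at 0.22. Without the intensity trend Tpi1 did not pass (0.11). Gapdh oxidises triose phosphate and is widely used as a reference gene. Its 3 control probe sets were higher with corticosterone in each couple, by 0.05 to 0.27 on the log2 scale. Added to the fit after the data were seen, they had log2 fold changes of 0.11 (3′ end), 0.16 (middle) and 0.14 (5′ end) with adjusted p of 0.19, 0.083 and 0.10. The 3′ to 5′ ratio of Gapdh was 1.15 to 1.25 with vehicle and 1.14 to 1.20 with corticosterone.

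The following steps are catalysed by Pgk1, Pgam1 and the enolases. Pgk1, which makes ATP, had signals of 13937, 15291 and 17057 with vehicle and 11925, 12676 and 16962 with corticosterone. It was lower in each couple, by 0.01 in couple 3, and did not pass (−0.17, adjusted p = 0.094). It passed as lower without couple 3 (0.046) and with median centring (0.018), and a second Pgk1 probe set had signals of 7119 ± 1274 and 7269 ± 2201. Pgam1 had signals of 9144 ± 669 and 10221 ± 632 (0.16, adjusted p = 0.092). Eno1, the general enolase, had signals of 12472 ± 502 and 13751 ± 908 (0.14, adjusted p = 0.16). With quantile normalization Aldoa, Pgam1 and Eno1 passed as higher (0.024, 0.043 and 0.031), so the call of these strong signals depended on the scaling of the arrays.

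Eno2, the enolase known as neuron-specific, had signals of 174, 168 and 338 with vehicle and 348, 449 and 386 with corticosterone. The groups did not overlap (log2 fold change 0.78 ± 0.18, SE; adjusted p = 0.012). Couple 3, whose vehicle array was the highest of the 3, moved little, by 0.18, and the cause was not tested. Eno2 did not pass without couple 2 (0.15), without the filter (0.063) or without the intensity trend (0.094). Of 8 neuronal markers tested 0 rose, Tubb3 fell (−0.52) and 7 did not pass, and their summed signal was 13327 to 14734 with vehicle and 11666 to 14168 with corticosterone. Before adjustment, limma p was under 0.05 for 2 lower and 0 higher neuronal markers.

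Lactate dehydrogenase interconverts pyruvate and lactate. Ldha, whose subunit favours making lactate, had signals of 9487, 10448 and 12371 with vehicle and 11104, 10854 and 13283 with corticosterone (0.13, adjusted p = 0.16). Ldhb, whose subunit is typical of oxidative tissue, had signals of 14121, 13783 and 14816 with vehicle and 13014, 11689 and 13655 with corticosterone. All 3 corticosterone arrays lay below the vehicle arrays, but the difference did not pass (−0.16, adjusted p = 0.077, and 0.0098 with median centring).

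Pyruvate dehydrogenase kinases phosphorylate the pyruvate dehydrogenase complex and so keep pyruvate out of the mitochondrial cycle. Pdk2, the broadly expressed isoform, rose from 262, 468 and 387 to 408, 849.6 and 648. The step was alike in the 3 couples, at 0.59, 0.82 and 0.70, although the groups overlapped (log2 fold change 0.71 ± 0.10, SE; adjusted p = 8.8e-04). A second Pdk2 probe set had signals of 62.2, 118 and 9.49 with vehicle and 109.5, 261 and 165 with corticosterone (1.31, adjusted p = 0.0093, and 0.060 without the filter). Its vehicle mean of 63.1 lay under the filter signal of 63.6 and its vehicle array of couple 3 below background, so it entered the test through the group in which it is high and adds no support. The first Pdk2 probe set passed in every alternative run but the fit that ignored couples (0.25). Pdk1 did not pass (0.23, adjusted p = 0.27), nor did Pdk3, at 672 to 772 with vehicle and 717 to 819 with corticosterone (0.07, adjusted p = 0.64). The member genes that encode subunits of the complex itself did not pass. Pdha1, its catalytic alpha subunit, had a log2 fold change of 0.05 with a 95% interval of −0.09 to 0.18. A second Pdha1 probe set had 0.16 with an interval of −0.04 to 0.35 (adjusted p = 0.26). Pdhb, the beta subunit, had a log2 fold change of −0.03 with an interval of −0.16 to 0.11. Pck2, the mitochondrial enzyme that makes phosphoenolpyruvate, had signals of 239 ± 23.3 and 287 ± 26.6 (0.24, adjusted p = 0.23).

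Glycogen phosphorylase releases glucose phosphate from glycogen, and glycogen synthase builds the polymer. The brain phosphorylase Pygb rose from 1245, 1675 and 1709 to 2278, 2536 and 2190.2. Its groups did not overlap, and the log2 fold change was 0.60 ± 0.09 (SE; adjusted p = 0.0013). Pygb passed in every alternative run but the fit that ignored couples (0.062). Gys1, the synthase of most tissues outside liver, rose from 221, 262 and 417 to 284, 435 and 500.3 (0.42 ± 0.12, SE; adjusted p = 0.041). Its call ended without couple 1, 2 or 3 (0.066, 0.30 and 0.053) and in 4 other fits, with quantile normalization (0.070), with median centring (0.096), without the filter (0.099) and without the intensity trend (0.097). The liver phosphorylase Pygl had signals of 53.4, 59.0 and 127 with vehicle and 61.5, 79.8 and 187 with corticosterone (0.31, adjusted p = 0.31).

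Gpd1 encodes the cytosolic glycerol phosphate dehydrogenase, which draws triose phosphate into glycerol phosphate for lipids or for passing electrons to mitochondria. Its signals were 51.1, 54.7 and 36.7 with vehicle and 131, 148 and 74.5 with corticosterone. The groups did not overlap (log2 fold change 0.92 ± 0.20, SE; adjusted p = 0.0093). All 3 vehicle signals lay under the filter signal of 63.6 and all 3 corticosterone signals above it. Gpd1 thus entered the test through the group in which it is high, so its call and the lack of overlap add no support. Without the filter its adjusted p was 0.045. It did not pass without couple 1 (0.055) or couple 2 (0.11), and a second Gpd1 probe set stayed at or below 6.22 on every array.

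Changes of paralogs of 1 enzyme were compared within couples. A log2 change in a couple is the corticosterone value minus the vehicle value, and no exact test over 3 couples can give a two-sided p below 0.25, so these differences are given without a test. Aldoc rose more than Aldoa by 1.36, 2.06 and 0.84 in couples 1, 2 and 3. Eno2 rose more than Eno1 by 0.63, 1.28 and 0.01. Pfkm exceeded Pfkp by 0.91, 0.45 and 0.65, and Pfkl by 0.62, 0.01 and 0.26, so that Pfkm and Pfkl hardly differed in couple 2. The change of Pdk2 was above that of Pdk3 by 0.50, 0.79 and 0.62, and above that of Pdk1 by 0.40, 0.70 and 0.34. Ldha exceeded Ldhb by 0.34, 0.29 and 0.22, the steadiest of the 11 pairs, with a mean of 0.29 ± 0.06 (SD, n = 3 couples). Hk1 exceeded Hk2 by 0.72, 0.86 and 0.10. Pygb and Pygl, and Slc2a1 and Slc2a3, differed in opposite directions between couples.

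**Figure D3:**
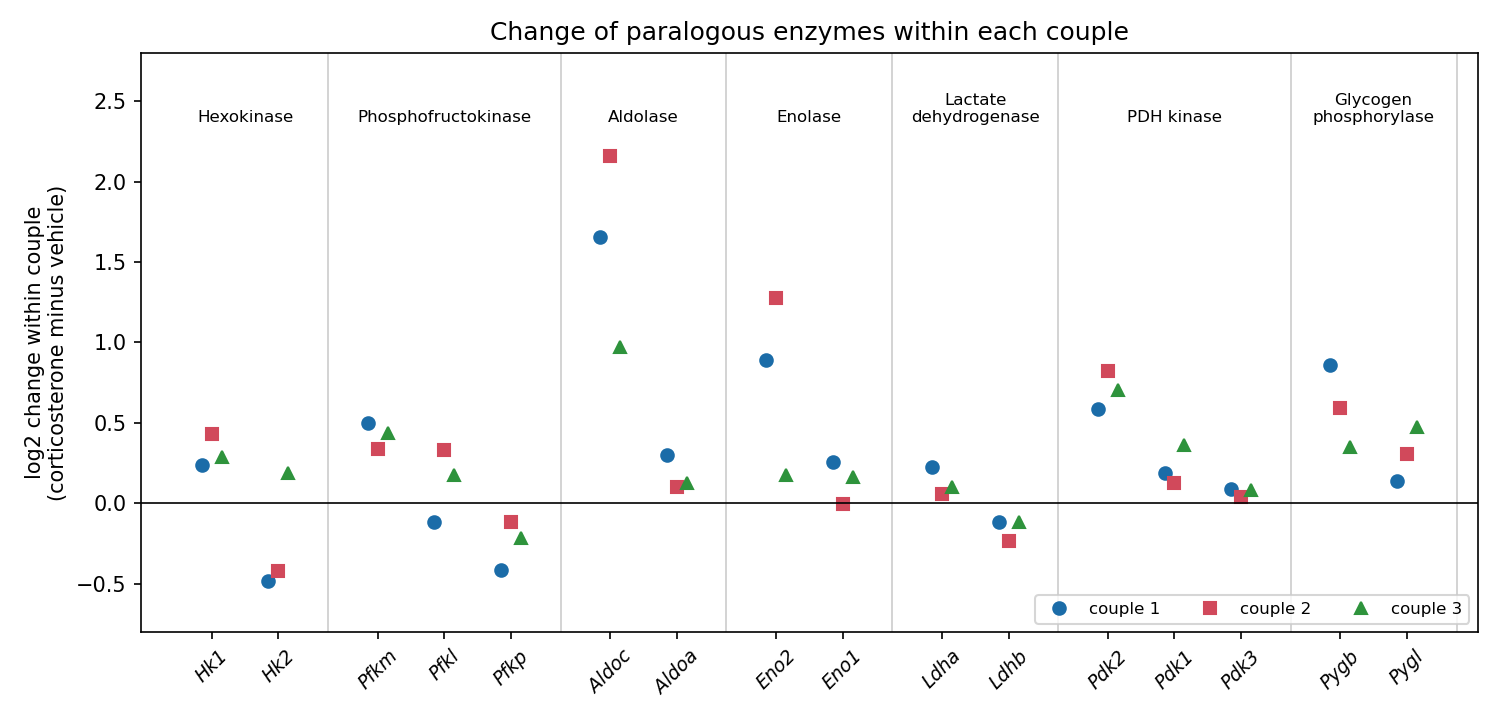
Log2 change within each couple (corticosterone minus vehicle, on the log2(signal + pseudocount) scale) for paralogous enzymes, 1 point per couple. Aldoc, at 0.97 to 2.16, stands above Aldoa, at 0.10 to 0.30, and Ldhb is below 0 in all 3 couples while Ldha is above 0.

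Members also differed between couples, whatever the treatment. This was noticed in the data and then described with the couple term of the same model, a moderated F test in limma that asks whether the 3 couples share a level. It passed for 13 of the 30 members tested, against 15.1% of all genes, and 7 of these 13 did not pass for treatment. In 11 of the 13 couple 3 was highest, against 32.1% of all genes that passed the couple term. Pfkl had signals of 173 and 157 in couple 1, 412 and 526 in couple 2, and 832 and 943 in couple 3 (vehicle first; adjusted p of the couple term = 3.1e-05). Pdk1, a kinase gene induced by low oxygen, had 125 and 147, 166 and 184, and 436 and 569 (2.1e-04). Both its arrays in couple 3 lay above all 4 others, as did those of Slc2a1 (0.0028) and Pygl (0.016). Slc16a3, not tested, had the same order.

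Among the hypoxia factor and target genes, Bnip3, a mitophagy gene induced by low oxygen, had 1471 and 1285 in couple 1, 1281 and 1496 in couple 2, and 2760.2 and 3219 in couple 3 (adjusted p of the couple term = 2.0e-04). Vegfa, the endothelial growth factor, had 567 and 369, 789.6 and 693, and 997 and 1336 (0.0033). The list did not share 1 order of couples. Of its 9 genes tested 6 passed the couple term, and couple 3 was highest in 4 of them, Bnip3, Vegfa, P4ha1 and Egln1. Epas1 was highest in couple 2, with geometric means of 562, 1564 and 861 in couples 1, 2 and 3 (4.7e-04), and Adm, a vasodilator peptide gene, was highest in couple 1 (0.022). Hif1a (0.68), Egln3 (0.089) and Ankrd37 (0.083) did not pass. Nothing in the labels says how the couples differed. The couple term was fitted on the arrays in which the pattern was seen, so it describes these couples only.

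**Figure D4:**
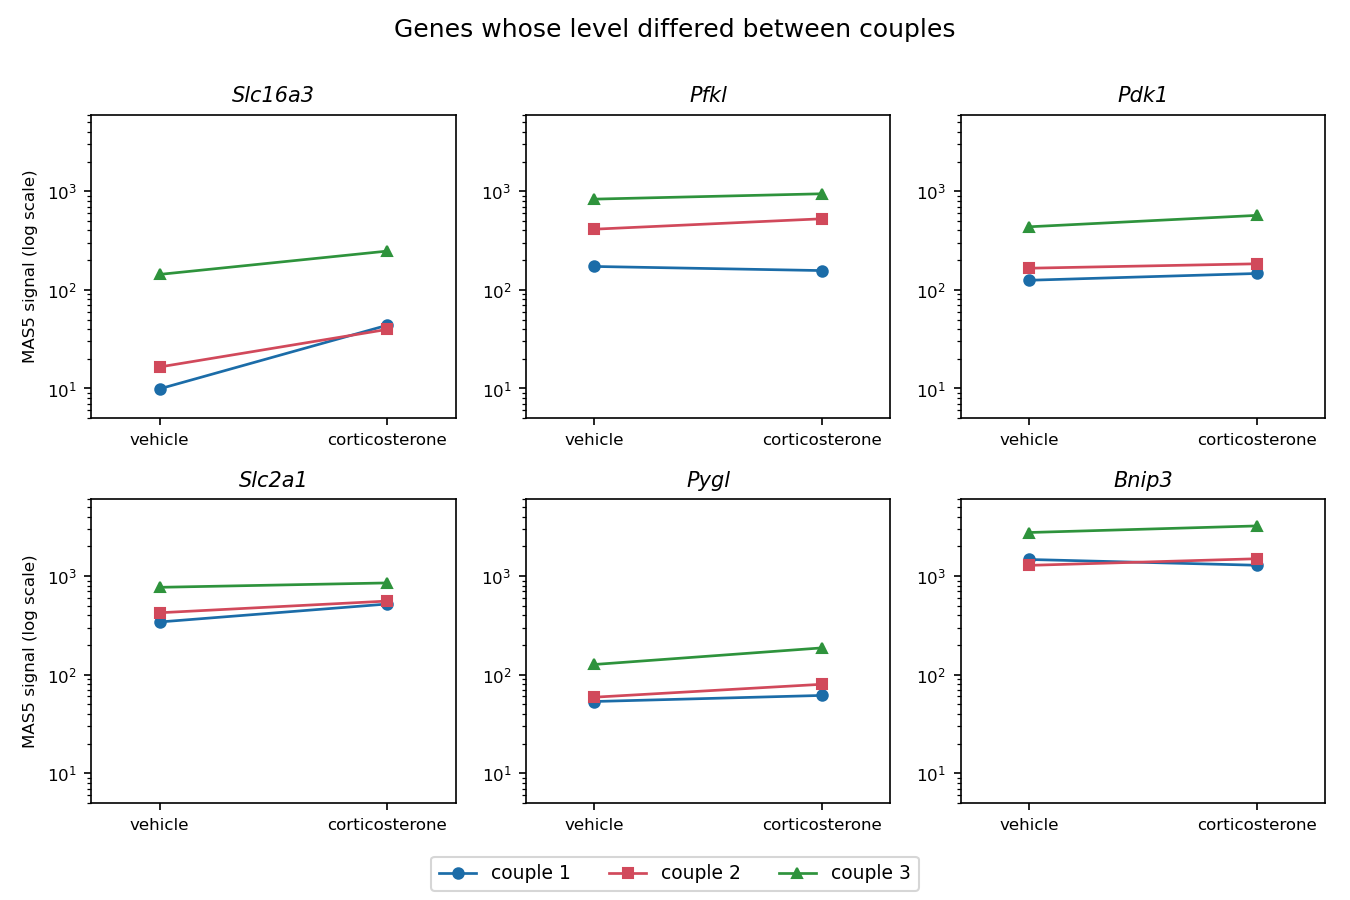
MAS5 signal on a log axis for Slc16a3, Pfkl, Pdk1, Slc2a1, Pygl and Bnip3, with vehicle at left, corticosterone at right and 1 line per couple. Couple 3 lies above couples 1 and 2 at both ends in all 6 panels. These genes were chosen after the order was seen, so the panels are no test of it. Pdk2 and Pfkfb3, not drawn here, passed the couple term and were highest in couple 2.

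Of 82 other genes of these pathways and of the hypoxia response, 66 had a probe set and 49 were tested. Among them 7 rose, 3 fell and 39 did not pass. That is 20.4% against 19.5% of all genes, a share near the background. The mitochondrial glycerol phosphate dehydrogenase Gpd2, which works with Gpd1 in passing electrons to the respiratory chain, rose from 244, 607 and 465 to 609, 947 and 696 (log2 fold change 0.80 ± 0.13, SE; adjusted p = 0.0019). Of the pyruvate and lactate group Me1, the malic enzyme that makes NADPH, rose by 0.43, the pyruvate carboxylase gene Pc by 0.40 and Bsg, the chaperone of the lactate transporters, by 0.27 (adjusted p = 0.0086, 0.044 and 0.013). The muscle enolase gene Eno3 rose by 0.55, and Pgam5, a mitochondrial phosphatase despite its name, fell (−0.36; adjusted p = 0.047 and 0.0074). Of 6 pentose phosphate genes Rpia, the ribose phosphate isomerase, fell (−0.36, adjusted p = 0.0088) and 5 did not pass. Of 14 glycogen genes 0 passed in limma, while before adjustment 2 higher and 0 lower had p under 0.05.

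Of 9 hypoxia factor and target genes 2 rose, 1 fell and 6 did not pass. Egln3, an oxygen-sensing prolyl hydroxylase, rose from 542, 867 and 754 to 1108, 1229 and 1246 (0.73 ± 0.10, SE; adjusted p = 6.9e-04). Epas1, a hypoxia-inducible factor subunit, rose by 0.80 (adjusted p = 9.9e-04), while Hif1a did not pass (−0.12, adjusted p = 0.24). Ankrd37, a target of these factors, fell from 139, 123 and 185 to 66.2, 59.1 and 135 (−0.66, adjusted p = 0.026).

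When couples were ignored 0 of these other genes passed in limma, while before adjustment 6 higher and 3 lower had p under 0.05. Without couple 1 or couple 2 Egln3, Epas1 and Gpd2 passed, and the other 7 did not, with adjusted p from 0.051 to 0.16 without couple 1 and from 0.057 to 0.30 without couple 2. Eno3 did not pass without couple 3 either. Without the intensity trend Rpia (0.066), Bsg, Me1, Pc and Pgam5 did not pass. Rpia also did not pass as the mean of its tested probe sets (0.12). The other tested Rpia probe set had a log2 fold change of −0.09 (adjusted p = 0.75). Bsg did not pass with median centring, nor did Ankrd37 without the filter (0.093). With quantile normalization, with median centring and without the filter neither Eno3 (0.10, 0.077 and 0.14) nor Pc (0.078, 0.10 and 0.10) passed.

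Of the other pathway genes below the filter, Pdk4 and Car9 had an adjusted p under 0.05 without it, and they were chosen after their values were seen. Pdk4 is a pyruvate dehydrogenase kinase gene known to respond to glucocorticoids and fasting. Its signals were 22.2, 45.2 and 27.9 with vehicle and 81.8, 99.1 and 87.2 with corticosterone. These groups did not overlap (background 14.8% of genes tested, higher), and its vehicle array of couple 1 lay below background signal. Without the filter its log2 fold change was 0.98 (adjusted p = 0.037). A second Pdk4 probe set, with signals of 36.2, 8.24 and 59.6 with vehicle and 73.6, 67.2 and 71.3 with corticosterone, did not pass without the filter (0.74, adjusted p = 0.17). Car9, a carbonic anhydrase gene induced by low oxygen, had signals of 8.10, 21.9 and 40.6 with vehicle and 72.7, 92.3 and 73.7 with corticosterone (log2 fold change 1.097, adjusted p = 0.043 without the filter). Its vehicle arrays of couples 1 and 2 lay below background. As both genes failed the filter and were picked by these values, their calls add no support.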

How the data were processed

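The authors deposited a linear intensity (signal) for every probe set, made with MAS5 per the submitters' processing notes. Which version and settings were used is not given in the sources used here. Each array had the same mean of 500.2 once the lowest and highest 2% were left out. Per the labels' protocols, cRNA was made from 3 µg total RNA primed at the poly(A) tail, which weights signals towards the 3′ end.

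Symbols were those of the platform annotation, and probe sets listing several genes were left unnamed. Signals were transformed to log2(signal + 28.6), 57 control probe sets were left out, and the dimmest 40% by mean log2 value (corresponding to a signal of 63.6) were removed, leaving 18625. They were fitted in limma 3.58.1 (R 4.3.3; lmFit, eBayes with trend) on treatment plus couple, and p-values were Benjamini-Hochberg adjusted over all 18625 and tested two-sided at 0.05. The script was tested on simulated data. Background, 22.8, was set at the 95th percentile of signals from 27 bacterial control sets.

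The series design names couples, and deviations from group means correlated by 0.57, 0.52 and 0.35 within couples across probe sets. Nothing states that couples came from separate animals, so p-values measure only the spread between these samples, which may be technical, and the number of arrays limits precision. Every member is accounted for, members that passed are given in full, and other pathway genes are named where they passed. Members and lists were chosen with earlier results of these data known. Alternatives tried were no couple block, each couple left out, quantile normalization, median centring, pseudocounts of 1 and 100, no filter, a 60% filter, no intensity trend and gene means over probe sets. The couple term and the fit with rat control probe sets were added after seeing the data.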

Additional observations from a re-analysis of the deposited data

How the results depend on the processing

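With the couple as a replicate block, 2953 probe sets, 14 member probe sets, 12 member genes and 10 other pathway genes passed. Without the replicate block 417, 1, 1 and 0 passed in limma (beside the 0, before adjustment, 6 higher and 3 lower had p under 0.05). Without the intensity trend the counts were 1262, 5, 4 and 5. Without the filter 1862 probe sets, 8 member probe sets and 7 member genes passed, where more probe sets were tested. With 1 couple left out the counts ranged from 1192 (without couple 2) to 2807 (without couple 3) probe sets, from 5 to 13 member probe sets, from 5 to 11 member genes and from 3 to 9 other pathway genes, and the median log2 fold change of the members from 0.21 to 0.25. That median was 0.12 with median centring, under which 1246 probe sets were higher and 2846 lower, against 1751 and 1202.

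Some members that did not pass changed sign. With median centring the log2 fold change was −0.071 for Slc16a1, −0.024 for Pfkfb3, −0.037 for Pdk3 and −0.060 for Pdha1, and with quantile normalization it was 0.020 for Pdhb. With 1 couple left out it ranged from −0.0084 to 0.082 for Slc16a1, from −0.037 to 0.29 for Pfkfb3 and from −0.057 to 0.014 for Pdhb. The cause was not tested. No member that passed changed sign in any alternative run, and both other pseudocounts kept all 12 calls.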
